A study of Mus musculus with 44 samples.

Results

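A set of 10 genes that mark astrocytes was followed in RNA pulled down from the ribosomes of Crh neurons of the mouse central amygdala. The 10 genes were Aqp4, Gja1, Gjb6, Slc1a3, Slc1a2, Aldh1l1, Aldoc, Acsbg1, Fabp7 and Gfap, out of 8203 genes measured in 44 mice. They were taken by symbol from a list proposed with earlier results of these data known, and all 10 were measured in every mouse. Which values led to the list was not recorded, so their levels and differences across the training groups and batches are a description. Fitted differences, errors and counts from limma are given for them on those contrasts, and nothing is read from whether they pass a threshold.

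Every mouse carried a Crh-Cre transgene and a Cre-dependent eGFP-L10a transgene, heterozygous for each, and GFP-tagged ribosomes were captured by antibody from cells in which the Crh promoter had driven Cre (Crh-TRAP). The mice were 10 to 16 weeks old, and each sample came from the bilateral amygdala punches of a single mouse. Tone-alone mice (TA, n = 16) heard 5 tones without shock. Fear-conditioned mice (FC, n = 12) received 5 tones, each paired with a 0.65 mA foot shock. Extinction mice (EXT, n = 16) were conditioned in the same way and heard 30 tones without shock in another context on the next day. Tissue was taken 2 h after the last session. The labels give 5 batches, and batches 3 (5 mice) and 4 (1 mouse) held only EXT mice, so that batch and EXT cannot be told apart there. Batch 1 held 4 TA, 5 FC and 2 EXT mice, batch 2 held 5, 2 and 3, and batch 5 held 7, 5 and 5. Effective library sizes, solved back from the deposited values, ranged from 12802113 to 20440351. Their medians were 18015590 in TA, 16977973 in FC and 15412341 in EXT mice. They are not read totals, as in mouse 13 the measured genes summed to 16920276 reads against an effective size of 16372659. Library size below means this effective size. Values are log2 cpm (read counts scaled to effective library size), in which a difference of 1 is a 2-fold difference. Each astrocyte gene value rested on at least 114 reads.

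Astrocytes are the glial cells that clear glutamate and potassium from around synapses, exchange water with the vasculature, and supply neurons with metabolites. They are linked to each other by gap junctions, and they carry a set of genes that neurons express little or not at all. Whether a difference in such RNA stems from the number of astrocytes in the punch, from RNA per astrocyte, from how much unbound RNA was carried through the pulldown, or from the tagged cells cannot be told apart in these samples. Input RNA from the same punches was not analysed here.

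The bases just upstream of 3 of the genes are shown because the values below turn most on Fabp7, Acsbg1 and Aldoc. The sequences are from RefSeq on GRCm38.p6, 5′ to 3′ on the strand of the gene, and end at the last base before its first annotated exon. Capitals mark matches on either strand to the letters TTCNNNGAA (the STAT motif), TGGGAA (the RBPJ motif) or TTGGCA (a motif of NFI factors), motifs of factors known from astrocyte development.
Fabp7, chr10:57784673-57784880, plus strand: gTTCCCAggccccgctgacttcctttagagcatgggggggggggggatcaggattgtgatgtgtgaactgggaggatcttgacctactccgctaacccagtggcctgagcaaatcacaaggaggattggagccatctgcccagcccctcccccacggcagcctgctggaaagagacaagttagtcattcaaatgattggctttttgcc
Acsbg1, chr9:54661886-54662135, minus strand: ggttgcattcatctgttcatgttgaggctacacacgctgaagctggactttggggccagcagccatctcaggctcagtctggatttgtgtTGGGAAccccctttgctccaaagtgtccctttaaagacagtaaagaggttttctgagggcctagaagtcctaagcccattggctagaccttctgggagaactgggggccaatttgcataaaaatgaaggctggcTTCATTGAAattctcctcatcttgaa
Aldoc, chr11:78322823-78322967, plus strand: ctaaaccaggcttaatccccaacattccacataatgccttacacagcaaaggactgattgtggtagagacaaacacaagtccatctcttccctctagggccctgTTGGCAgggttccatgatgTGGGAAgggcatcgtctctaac
RefSeq promoter windows were matched for 9 of the 10 genes. Over these windows, which run from 250 bases before the start site into the first exon, TTCNNNGAA was found in 3 of the 9 (Acsbg1, Aldoc and Slc1a3), against 7.02% of 32851 mouse promoters. The letters TGGGAA were found in 5 of the 9 (Acsbg1, Aldh1l1, Aldoc, Fabp7 and Gfap), against 21.6% of promoters. TTGGCA was found in Aldoc alone, against 12.3% of promoters, and ACAATG (the SOX motif) in 0 of the 9, against 10.7%. These matches are letters in a window and say nothing of binding.

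Per kilobase of exon, the level of the 10 genes covered a wide range. Aldoc, the brain form of the glycolytic enzyme aldolase, had the highest median level, 287 cpm per kb over the 44 mice, which lies above 97.7% of the 8005 genes with a length. Gfap, the intermediate filament of astrocytes, had a median of 29.2 cpm per kb. Fabp7, a fatty acid binding protein of astrocytes and radial glia, had 29.0, and Acsbg1, an acyl-CoA synthetase that activates long-chain fatty acids, had 20.2. The lowest were Aldh1l1 at 4.17 and Aqp4 at 4.45. On the same scale Crh, the gene whose promoter drives Cre, had a median of 33.5 cpm per kb and the GABA-synthesizing enzymes Gad1 and Gad2 had 78.2 and 84.2, while the synaptic gene Snap25 had 634. A marker of another cell type was also present, with a median of 1899 cpm per kb for the choroid plexus gene Ttr, which ranged from 9.44 to 33766 between mice. Levels per kb of Fabp7, Gfap and Crh thus stood close together, whereas Aldoc stood well above all 3.

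**Figure D1:**
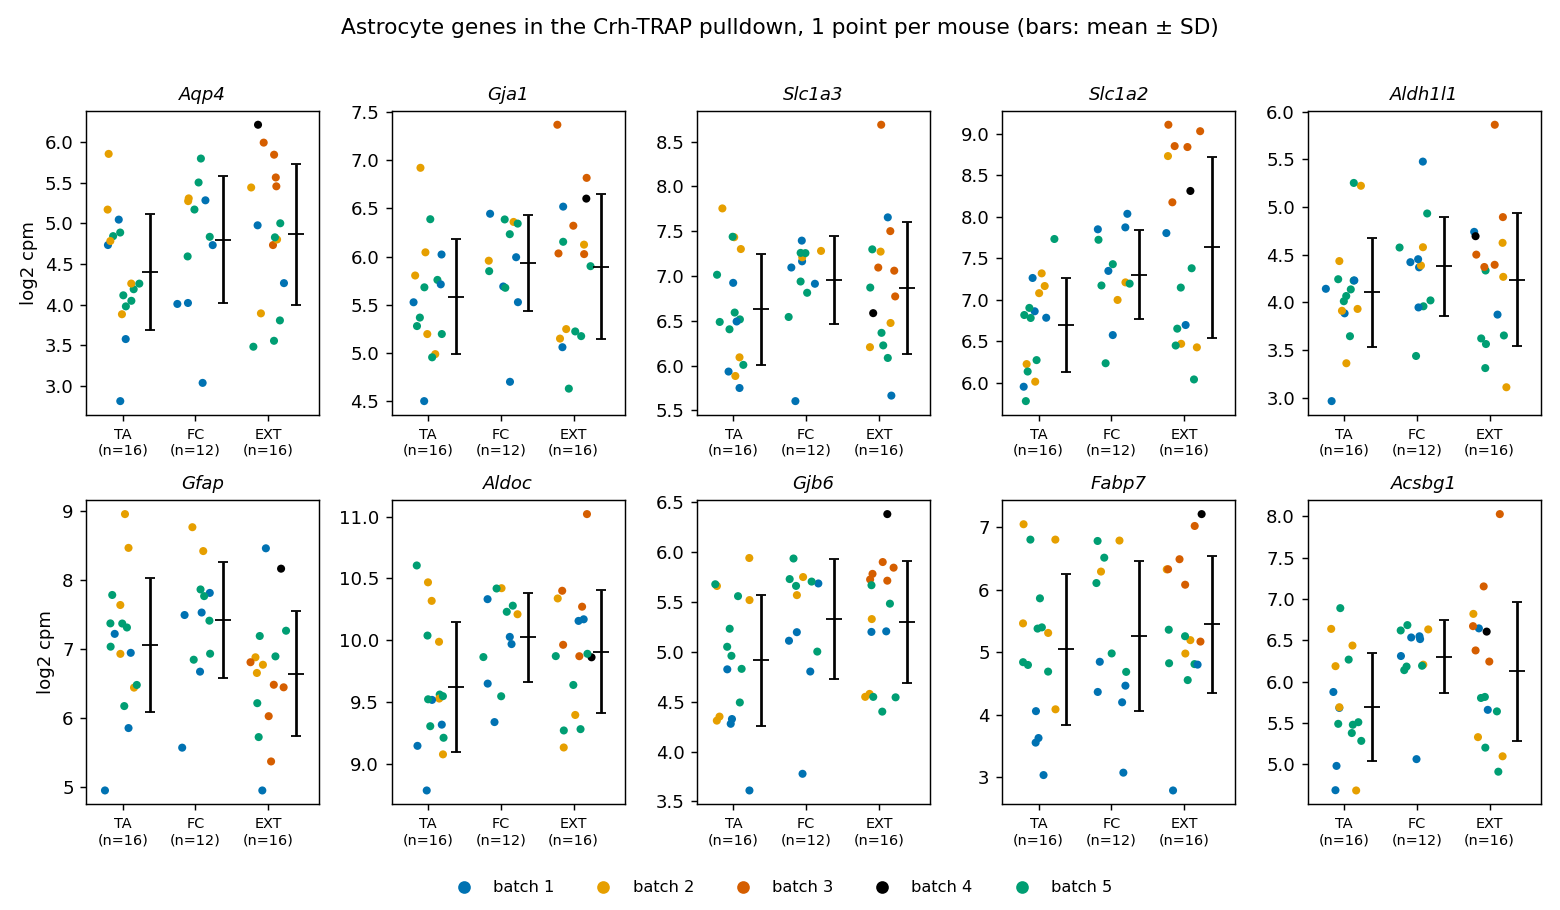
Log2 cpm (vertical axes) of each of the 10 genes in each mouse of the TA, FC and EXT groups, with points coloured by batch and black bars for the group mean ± SD. The groups overlap for every gene, the EXT mice of batch 3 lie high for Slc1a2 and low for Gfap, and the mice of batch 1 lie low for Fabp7.

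Among the genes of water and gap junctions, Aqp4 encodes the water channel of astrocyte endfeet. Its log2 cpm ran from 2.81 to 5.86 in TA mice (median 4.26), from 3.04 to 5.80 in FC mice (median 5.00) and from 3.48 to 6.21 in EXT mice (median 4.90). The groups overlapped over most of their range, and 9 of 12 FC and 12 of 16 EXT mice lay above the TA median. Gja1 (chr10:56377330-56402513), which encodes connexin 43, ran from 4.50 to 6.92 in TA mice (median 5.60), from 4.70 to 6.44 in FC mice (median 5.97) and from 4.63 to 7.37 in EXT mice (median 6.03). Gjb6 (chr14:57123303-57133611), which encodes connexin 30, ran from 3.61 to 5.94 in TA mice (median 4.89), from 3.78 to 5.94 in FC mice (median 5.62) and from 4.40 to 6.38 in EXT mice (median 5.41). For both connexins, 10 of 12 FC mice were above the TA median, as were 10 of 16 EXT mice for Gja1 and 11 of 16 for Gjb6.

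The glutamate transporters differed in their EXT values. Slc1a3 (chr15:8634124-8710764), which encodes GLAST, ran from 5.75 to 7.75 log2 cpm in TA mice (median 6.50), from 5.60 to 7.40 in FC mice (median 7.13) and from 5.66 to 8.69 in EXT mice (median 6.82). Slc1a2 (chr2:102658659-102790784), which encodes GLT-1, the main glutamate transporter of the forebrain, ran from 5.78 to 7.73 in TA mice (median 6.80), from 6.23 to 8.03 in FC mice (median 7.28) and from 6.04 to 9.11 in EXT mice (median 7.59). Slc1a2 thus had the widest EXT range of the pair, and its upper end was made up mainly of mice of batch 3, which spanned 8.17 to 9.11.

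Of the metabolic genes, Aldoc (chr11:78322968-78327781) ran from 8.78 to 10.61 log2 cpm in TA mice (median 9.53), from 9.34 to 10.42 in FC mice (median 10.12) and from 9.13 to 11.02 in EXT mice (median 9.88). Acsbg1 (chr9:54604877-54661870) ran from 4.68 to 6.89 in TA mice (median 5.60), from 5.06 to 6.68 in FC mice (median 6.41) and from 4.91 to 8.03 in EXT mice (median 6.03). For both genes 11 of 12 FC mice and 12 of 16 EXT mice lay above the TA median, and the FC mice were less spread than the TA mice (SD 0.359 against 0.523 for Aldoc, 0.439 against 0.654 for Acsbg1; this difference in spread was not tested). Aldh1l1 (chr6:90486427-90600203), a folate enzyme widely used as a pan-astrocyte marker, ran from 2.96 to 5.25 in TA mice (median 4.10), from 3.44 to 5.48 in FC mice (median 4.40) and from 3.11 to 5.86 in EXT mice (median 4.35), with 8 of 12 FC mice above the TA median.

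Fabp7 (chr10:57784881-57788450) was the most variable of the 10 genes between mice of the same group. Its log2 cpm ran from 3.03 to 7.05 in TA mice (median 5.07), from 3.07 to 6.78 in FC mice (median 4.91) and from 2.79 to 7.21 in EXT mice (median 5.22), with group means of 5.05 ± 1.20 (SD, n = 16), 5.26 ± 1.20 (n = 12) and 5.45 ± 1.10 (n = 16). Only 5 of 12 FC mice were above the TA median, the fewest of the 10 genes. Gfap (chr11:102887336-102900912), which is raised in reactive astrocytes, was the single gene with a lower median in EXT than in TA mice. It ran from 4.95 to 8.96 in TA mice (median 7.13), from 5.57 to 8.77 in FC mice (median 7.52) and from 4.95 to 8.46 in EXT mice (median 6.72), and 4 of 16 EXT mice were above the TA median.

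The same few mice were at the ends of several genes at once. Mouse 10 had the lowest TA value of 8 of the 10 genes, and mouse 16 the lowest FC value of 8. Both were of batch 1, and their summed level over the 10 genes was 671 and 944 cpm, against a median of 1499 in that batch. Mouse 23, an EXT mouse of batch 3, had the highest EXT value of 5 genes and the highest sum of all, 3457 cpm. Differences below are given without these mice where they matter.

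The groups were compared with limma over all 8203 genes, with batch as categories and with sex, so that groups are set against each other inside batches 1, 2 and 5. The 3 comparisons share mice and are not independent of each other. In FC vs. TA all 10 genes were higher in FC mice. The difference was 0.68 ± 0.21 (SE) on the log2 scale for Acsbg1, 0.59 ± 0.20 for Slc1a2, 0.59 ± 0.28 for Gfap, 0.58 ± 0.28 for Fabp7, 0.55 ± 0.20 for Gjb6, 0.55 ± 0.24 for Aqp4 and 0.49 ± 0.16 for Aldoc. It was smaller for Gja1 (0.42 ± 0.20), Slc1a3 (0.41 ± 0.20) and Aldh1l1 (0.30 ± 0.21). The median of the 10 was 0.55, against -0.0041 for all genes, of which 49.0% were higher. None of the 10 genes passed an FDR of 0.05 in limma, and neither did any other gene (0 of 8203, 0%; 0 also with voom weights), while 1379 genes had an unadjusted p under 0.05. In the upward direction 6 of the 10 genes had an unadjusted p under 0.05, against 8.61% of all genes. As the genes may have been chosen on these contrasts, nothing is read from that count or from those of the next comparisons.

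The FC vs. TA difference was seen inside each batch that held both groups. In batch 1 (5 FC and 4 TA mice) 10 of 10 genes had a higher mean in FC mice, by a median of 0.66 on the log2 scale. In batch 2 (2 and 5 mice) 10 of 10 were higher, by a median of 0.47. In batch 5 (5 and 7 mice) 9 of 10 were higher, by a median of 0.46, and Aldh1l1 was lower by 0.041, which is small beside its spread between mice. Fabp7, for which few FC mice exceeded the TA median over all batches, was higher in FC mice by 0.62, 0.80 and 0.42 in batches 1, 2 and 5. Without mouse 10 the median of the 10 genes in FC vs. TA was 0.45, without mouse 16 it was 0.64, and all 10 remained higher in both fits. In limma 4 and 9 of the 10 were then higher at an unadjusted p under 0.05, against 604 and 719 of 8203 genes. Nothing is read from these counts.

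**Figure D2:**
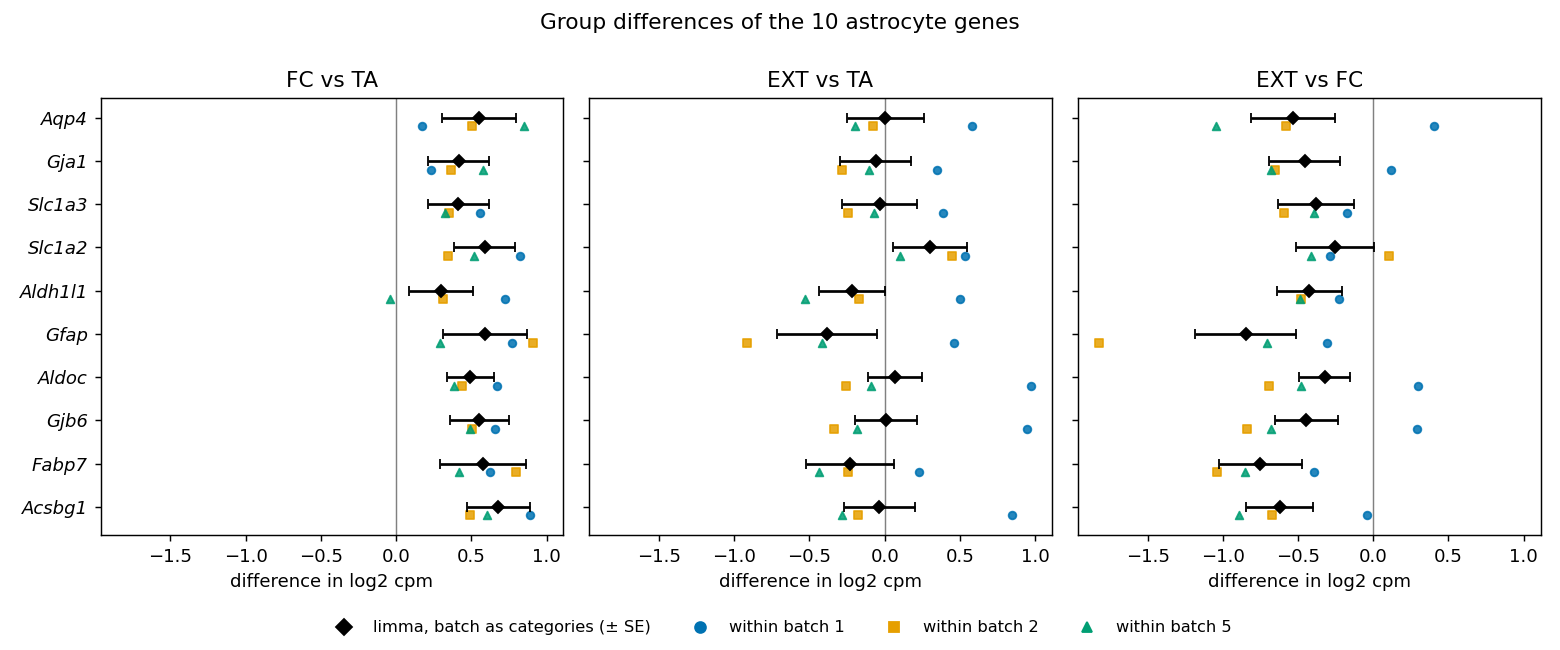
Difference in log2 cpm (horizontal axes) of the 10 genes in FC vs. TA, EXT vs. TA and EXT vs. FC, with black diamonds for the limma estimate ± SE and coloured symbols for the difference of means within batches 1, 2 and 5. In FC vs. TA the estimates lie between 0.30 and 0.68, in EXT vs. TA on both sides of 0, and in EXT vs. FC between -0.85 and -0.25.

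In EXT vs. TA the same fit gave 4 genes higher and 6 lower in EXT mice, with a median of -0.035 against 0.0073 for all genes. The largest positive difference was that of Slc1a2, 0.30 ± 0.25 (SE), and the largest negative one that of Gfap, -0.38 ± 0.33. Fabp7 differed by -0.23 ± 0.29, Aldh1l1 by -0.22 ± 0.22, Aldoc by 0.069 ± 0.18 and Acsbg1 by -0.036 ± 0.24. The other 4 lay between -0.061 and 0.011. Apart from Gfap and Slc1a2, each difference was smaller than its standard error, and none of the 10 had an unadjusted p under 0.05, against 21.1% of all genes. By FDR 2 of 8203 genes (0.0244%) were called, Iars and Fos, both lower and named after their values were seen. Without mouse 10, 2 of the 10 genes were higher and 8 lower (median -0.10), with Aldh1l1 at -0.29 ± 0.20 (SE). Without mouse 23, 4 were higher and 6 lower (median -0.028). Within batches the sign was mixed, since 10 of 10 genes were higher in EXT mice in batch 1 (2 EXT and 4 TA mice, median 0.52), but 1 of 10 in batch 2 (median -0.24) and 1 of 10 in batch 5 (median -0.19). The gene that was higher in all 3 batches was Slc1a2, by 0.53, 0.45 and 0.10. Gfap was 0.92 lower in batch 2 and 0.42 lower in batch 5. With log2 library size added to the fit, Slc1a2 differed by 0.036 ± 0.30 (SE) and Gfap by -0.45 ± 0.43.

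The sign of this comparison depended on the coding of batch for several genes. With batch entered as a number, 9 of the 10 genes were higher in EXT than in TA mice, with a median of 0.35. Slc1a2 was then 0.96 ± 0.29 (SE) higher and was among the 1755 of 8203 genes (21.4%) called, from which nothing is read for it. In that coding part of the offset of batches 3 and 4 enters the EXT term. Gfap was lower under either coding, by -0.38 with categories and -0.42 with the number. In EXT vs. FC with categories all 10 genes were lower in EXT mice, from -0.85 ± 0.33 (SE) for Gfap, -0.75 ± 0.27 for Fabp7 and -0.62 ± 0.22 for Acsbg1 to -0.25 ± 0.26 for Slc1a2, with a median of -0.45 against 0.011 for all genes. By limma 0 of 8203 genes (0%) passed the FDR threshold, 0 also with voom weights, and 344 had an unadjusted p under 0.05, among them 4 of the 10 in the lower direction against 1.97% of all genes, a count from which nothing is read. Without mouse 16 the count was 8 of the 10, against 241 of 8203 genes lower, and the median was -0.54. Without mouse 23 it was 5 of the 10, against 203 of 8203 genes. Nothing is read from these counts either. With the batch number 3 of the 10 were higher and 7 lower, and the median was -0.072. Within batches, 4 of 10 were higher in EXT than in FC mice in batch 1, 1 in batch 2 and 0 in batch 5.

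Batch, with 5 levels, explained more of the variance than group, with 3, for every one of the 10 genes. The median share over all genes was likewise larger for batch (41.5%) than for group (7.93%). The share of variance over the 44 mice that lay between batches was 57.0% for Fabp7 and 51.7% for Slc1a2, between 14.3% (Aldoc) and 32.0% (Aqp4) for the rest, and 41.5% for the median gene. Group, not adjusted for batch, explained 2.27% for Fabp7 and 21.8% for Slc1a2. The shares of batch and group overlap, as batches 3 and 4 held only EXT mice. Fabp7 had a mean of 3.89 ± 0.72 log2 cpm (SD, n = 11) in batch 1, against 5.83 ± 0.96 (n = 10) in batch 2, 6.22 ± 0.68 (n = 5) in batch 3 and 5.39 ± 0.75 (n = 17) in batch 5, with 7.21 in the mouse of batch 4. The highest Fabp7 value of batch 1 was 4.85, below the lowest value of batch 3, 5.17. No other of the 10 genes was set apart in batch 1 to this extent, although Aqp4 (4.23 ± 0.82), Gjb6 (4.73 ± 0.65), Gja1 (5.61 ± 0.65) and Aldoc (9.67 ± 0.50) also had their lowest batch mean there.

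**Figure D3:**
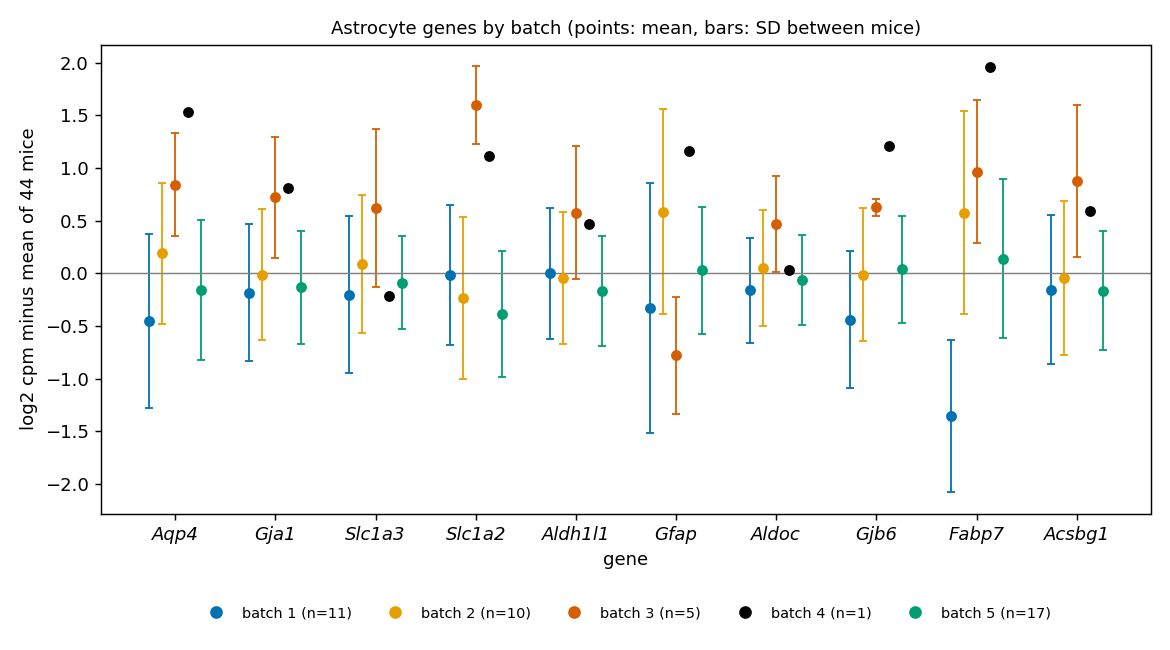
Mean log2 cpm of each of the 10 genes in each batch, as the difference from its mean over the 44 mice (vertical axis), with bars for the SD between mice and no bar for the mouse of batch 4. Fabp7 is lowest in batch 1, Slc1a2 is highest in batch 3, and Gfap is the gene with a low mean in batch 3.

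In batch 3, which held EXT mice alone, each of the 10 genes except Gfap had a higher mean than in batches 1, 2 and 5. Slc1a2 averaged 8.80 ± 0.37 log2 cpm (SD, n = 5), against 6.81 to 7.18 in batches 1, 2 and 5, and its lowest value in batch 3 was 8.17. Acsbg1 averaged 6.89 ± 0.72, against 5.85 to 5.97 in batches 1, 2 and 5. Gfap averaged 6.23 ± 0.55 in batch 3, its lowest batch mean, against 6.68 to 7.60 in those batches. Gjb6 was nearly constant over the 5 mice of batch 3, 5.79 ± 0.079. Because that batch held no TA or FC mouse, these levels cannot be assigned to batch or to extinction.

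The rule for the genes names groups and batches but not sex, and no difference between the sexes passed the test with batch as a term. In female vs. male mice (18 and 26) with group and batch as terms, 5 of the 10 genes were higher and 5 lower in females, from 0.36 ± 0.20 (SE) for Acsbg1 to -0.29 ± 0.25 for Fabp7, and 0 of 8203 genes (0%) passed an FDR of 0.05 in limma (339 at an unadjusted p under 0.05, and 0 by FDR with voom weights). The lowest adjusted p in limma of the 10 genes was 1.00. Without the batch term Fabp7 was 1.03 lower in females on the log2 scale, with an FDR of 0.0437 in limma. Batch 1, in which Fabp7 was low, held 9 of the 18 females and 2 of the 26 males.

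The EXT vs. TA difference was more positive in females than in males for all 10 genes, by 0.056 (Fabp7) to 1.11 (Acsbg1) on the log2 scale, but none passed the correction over all genes. Acsbg1 averaged 5.59 ± 0.69 log2 cpm in TA females and 6.69 ± 0.88 in EXT females (SD, n = 6 and 6), against 5.76 ± 0.66 and 5.79 ± 0.65 in TA and EXT males (n = 10 and 10). These means are not adjusted for batch. The highest EXT females, mouse 23 (8.03) and mouse 53 (7.15), were of batch 3, which held EXT mice alone. That batch also held 3 EXT males, with values from 6.24 to 6.67. The interaction of group and sex was 1.11 ± 0.39 (SE) for Acsbg1, with an unadjusted p of 0.00782 and an adjusted p of 0.706 in limma. It was 0.95 ± 0.37 for Aldh1l1 (adjusted p = 0.708) and 0.74 ± 0.31 for Aldoc (adjusted p = 0.758). Over all genes 0 of 8203 (0%) were called (494 at an unadjusted p under 0.05), and 3 of the 10 had a positive interaction with an unadjusted p under 0.05, against 2.71% of all genes. The interaction rests on EXT and TA values that may have led to the list, so nothing is read from that count. Without mouse 10 the interaction was positive for 8 of the 10, and that of Acsbg1 was 0.97. Without mouse 23 it was positive for all 10, and that of Acsbg1 was 1.00 ± 0.40 (SE, adjusted p = 0.355 in limma). In FC vs. TA by sex 2 of the 10 interactions were positive and 8 negative, the largest being -0.72 ± 0.56 for Fabp7, with adjusted p-values in limma from 0.715 to 0.993, and 0 genes (0%) were called (789 at an unadjusted p under 0.05).

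The 10 genes varied together among mice of the same batch and group. After centring on each combination of batch and group with at least 3 mice, the 45 pairs had Pearson r from 0.31 to 0.92 over 39 mice, with a median of 0.64. For comparison the median r of all gene pairs was -0.0054, and 1.34% of them were at or above 0.64. By permutation within these combinations (100000 resamples, two-sided, Benjamini-Hochberg over the 45 pairs), 43 pairs passed 0.05 by Pearson's r and 44 by Spearman's rho. All 45 pairs had a positive r within batch 1 (9 mice) and batch 2 (8 mice), and 44 of 45 within batch 5 (17 mice). The mice share depth, punch and pulldown across the genes, and the 10 genes were known astrocyte markers when they were chosen.

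**Figure D4:**
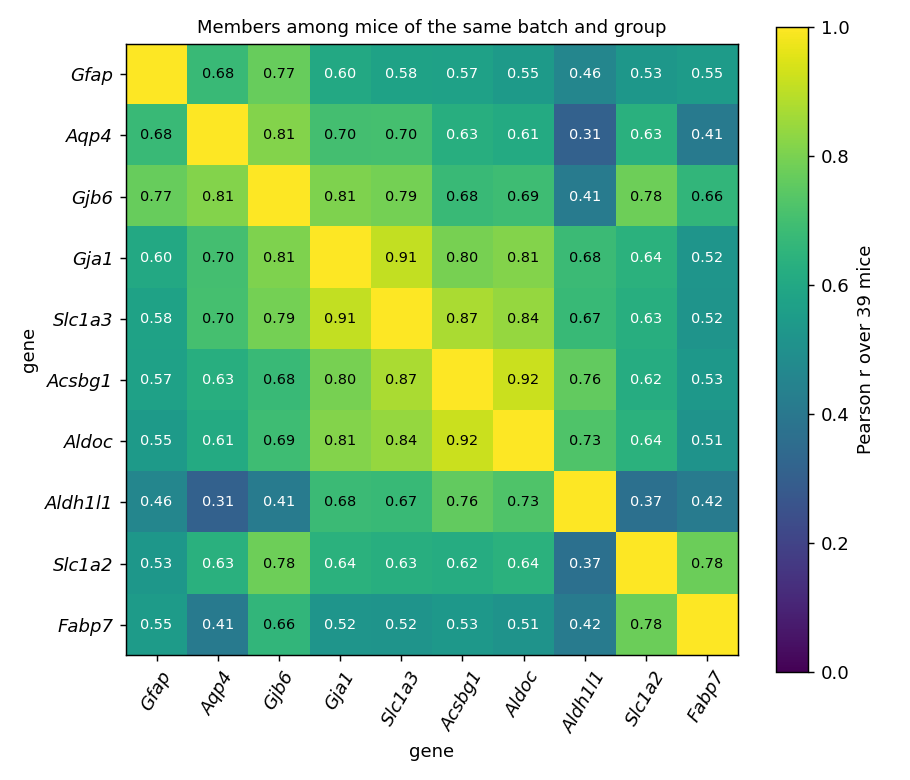
Pearson r over 39 mice (colour and number) for each pair of the 10 genes (both axes), computed on log2 cpm centred on each combination of batch and group. Values are highest among Gja1, Slc1a3, Acsbg1 and Aldoc and lowest where Aldh1l1 meets Aqp4.

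The closest pair was Aldoc and Acsbg1, with r = 0.92 and rho = 0.88 (permutation p = 1e-05 for each, the smallest that 100000 resamples can give, adjusted 3.75e-05 and 3.46e-05), and r = 0.90 without the 2 mice farthest from the median of Aldoc. The next was Gja1 and Slc1a3, with r = 0.91 and rho = 0.91 and the same permutation p, and r = 0.89 without the 2 farthest mice. Fabp7 was most closely tied to Slc1a2 (r = 0.78, rho = 0.80, permutation p = 1e-05, and 0.75 without the 2 farthest mice), the other gene with most of its variance between batches, and not to Acsbg1 (r = 0.53, rho = 0.50, permutation p = 0.00263 and 0.00298). On these centred values the r of Fabp7 and Slc1a2 was 0.82, 0.76 and 0.76 within batches 1, 2 and 5. Gfap was closest to Gjb6 (r = 0.77, rho = 0.77). Aldh1l1 stood furthest from the rest, with a median r of 0.46 with the other 9, and its r with Aqp4 was 0.31 (rho = 0.27, permutation p = 0.0916 and 0.151), with -0.036 within batch 5.

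No relation of the 10 genes to the size of the library or to Crh passed the test. With log2 library size, Pearson r of the 10 genes ran from -0.27 (Slc1a2) to 0.17 (Aldh1l1), and 0 of 10 passed by permutation (adjusted p of at least 0.731, and at least 0.843 by Spearman's rho). With Crh, r was negative for 10 of 10, from -0.36 (Slc1a2) to -0.054 (Gja1), and again 0 of 10 passed by permutation (adjusted p of at least 0.307, and at least 0.442 by Spearman's rho). Within batches the sign differed, as r with Crh was positive for 10 of 10 genes in batch 1 and negative for 10 of 10 in batch 2, where it was -0.92 for Slc1a2 and -0.44 for Gfap.

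The genes most like the mean of the 10, after removal of group, batch and sex over the 44 mice, were Gpr37l1 (r = 0.93), Plpp3 (0.92), Mlc1 (0.92), Mmd2 (0.92), Dbx2 (0.91), Bcan (0.89), Slc25a18 (0.88), Rftn2 (0.88), S1pr1 (0.87) and Htra1 (0.87). Of these, 6 (Gpr37l1, Plpp3, Mlc1, Slc25a18, S1pr1 and Htra1) were on the lists of other astrocyte genes used below. Mmd2 and Dbx2 were closer to Slc1a2 (0.87 and 0.88) and to Fabp7 (0.78 and 0.82) than Gpr37l1 was (0.72 and 0.60), whereas Gpr37l1 was closer to Gja1 (0.90) than either (0.78 and 0.73).

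Other astrocyte genes, listed by role, lay in the same direction as the 10 in FC vs. TA. Of 55 listed genes 40 were measured, of which 35 were higher and 5 lower in FC mice, with a median of 0.40 on the log2 scale. By limma 0 of the 40 passed an FDR of 0.05, and 22 were higher with an unadjusted p under 0.05, against 8.61% of all genes. These lists, too, were chosen with earlier results of these data known. Nothing is read from this count or from the counts of the lists below. Among the genes of transport and junctions, 10 of 12 were higher, with 0.39 ± 0.16 (SE) for Glul, which makes glutamine from glutamate (adjusted p = 0.211 in limma), and 0.57 ± 0.23 for Mlc1, a membrane protein of astrocyte endfeet (adjusted p = 0.211). Of the genes of lipid handling 6 of 8 were higher, with 0.25 ± 0.19 for the lipid carrier Apoe (adjusted p = 0.504), 0.43 ± 0.22 for the acyl-CoA binding protein Dbi (adjusted p = 0.308) and -0.011 ± 0.13 for Clu (adjusted p = 0.977). Of the remaining astrocyte genes 19 of 20 were higher, with 0.53 ± 0.15 for Ndrg2 (adjusted p = 0.114), 0.53 ± 0.19 for the metallothionein Mt1 (adjusted p = 0.162) and 0.45 ± 0.19 for the protease inhibitor Cst3 (adjusted p = 0.236).

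In EXT vs. TA 33 of the 40 were higher and 7 lower, with a median of 0.090, and none had an unadjusted p under 0.05 or passed the FDR threshold in limma. With the batch number as a covariate, 38 were higher and 8 passed an FDR of 0.05 (Cldn10, Cst3, Fam107a, Ndrg2, S100b, Ttyh1, Hepacam and Slc4a4), against 21.4% of all genes. In EXT vs. FC 34 of the 40 were lower, with a median of -0.22 against 0.011 for all genes, and 5 were lower with an unadjusted p under 0.05, against 1.97% of all genes. The relatives of the 10 by family include enzymes and carriers of wider expression. Of 10 measured relatives 5 were higher and 5 lower in FC mice, from -0.16 to 0.97, with a median of 0.0038. The highest thus lay above the largest difference of the 10 genes, 0.68. In limma 2 of the relatives were higher at an unadjusted p under 0.05, against 8.61% of all genes. Aldoa, the aldolase of most tissues, differed by -0.028 ± 0.065 (SE, adjusted p = 0.857 in limma), against 0.49 for Aldoc. Fabp5, which is also found in glia, differed by 0.32 ± 0.11 (adjusted p = 0.174), against 0.58 for Fabp7.

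**Figure D5:**
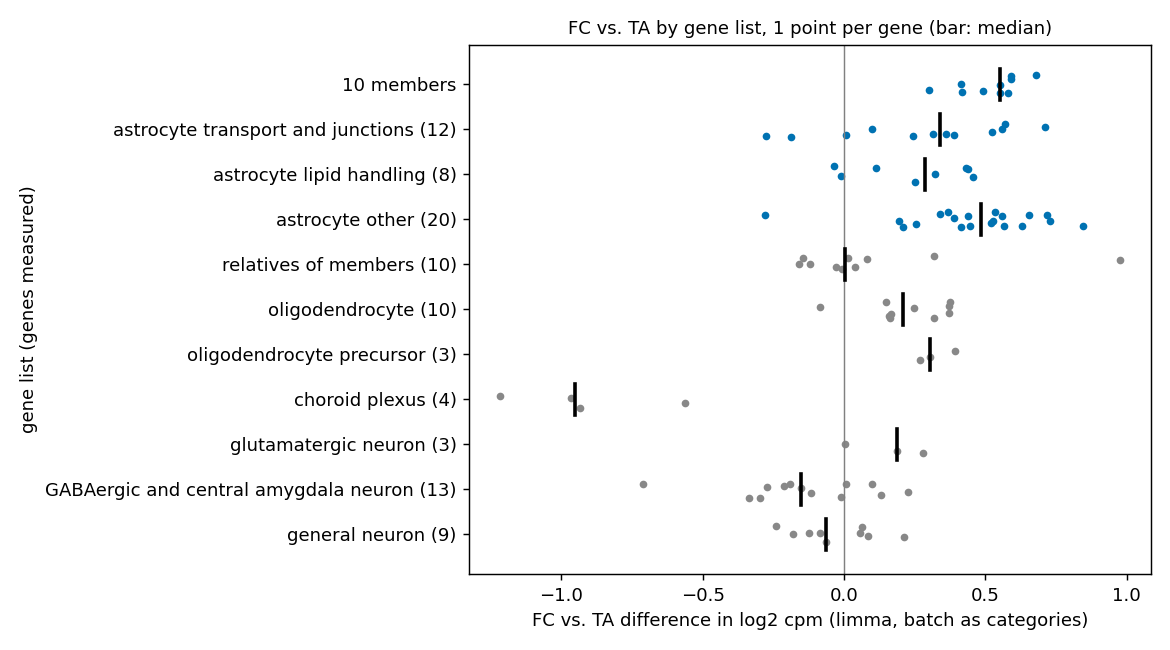
FC vs. TA difference in log2 cpm (horizontal axis, limma with batch as categories) of each measured gene of the lists named on the vertical axis, with a black bar for the list median. The 10 genes (median 0.55) and the 3 lists of other astrocyte genes lie mostly above 0, and the 4 choroid plexus genes below 0. The relatives of the 10 lie on both sides of 0, with the highest at 0.97.

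Genes of other cell types also differed in FC vs. TA without passing the FDR threshold. Of 10 measured oligodendrocyte genes 9 were higher in FC mice (median 0.21), as were 3 of 3 of oligodendrocyte precursors (median 0.30), and 0 of 13 had an FDR under 0.05 in limma, with 1 higher at an unadjusted p under 0.05, a share near the 8.61% of all genes. All 4 measured choroid plexus genes were lower (median -0.95), and 2 of the 4 reached an unadjusted p below 0.05, against 8.2% of all genes in that direction. Their summed level ran from 187 to 27465 cpm in TA mice, from 673 to 19373 in FC mice and from 186 to 51048 in EXT mice. Of the general neuronal genes 4 of 9 were higher (median -0.065), and of the genes of GABAergic and central amygdala neurons 4 of 13 (median -0.15). All 3 measured genes of glutamatergic neurons were higher (median 0.19). In EXT vs. FC the lower values were not confined to astrocyte genes. All 10 oligodendrocyte genes were lower in EXT mice (median -0.54), as were 3 of 3 of their precursors (median -0.43). The median there was -0.45 for the 10 astrocyte genes, -0.10 for general neuronal genes and 0.056 for those of GABAergic and central amygdala neurons. Only 1 of 10 microglial and 2 of 9 endothelial genes were measured, and the defining microglial markers Cx3cr1, P2ry12 and Tmem119 were not among the measured genes. With a choroid plexus score as a covariate, all 10 astrocyte genes remained higher in FC mice (median 0.42). Of them 4 in place of 6 had an unadjusted p under 0.05 in limma, against 708 of 8203 genes higher. Nothing is read from that count. Fabp7 went from 0.58 to 0.27 and Slc1a3 from 0.41 to 0.25. With an oligodendrocyte score the median was 0.49. The summed level of the 10 astrocyte genes ran from 671 to 2763 cpm in TA mice (median 1245), from 944 to 2390 in FC mice (median 1890) and from 986 to 3457 in EXT mice (median 1833). The part that the makeup of the punch had in these differences was not tested.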

How the data were processed

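Ribosome-bound RNA was pulled down from 44 individual mice, amplified with a SMARTer kit and made into NexteraXT libraries, which do not keep strand. Per the labels and the study's methods, the authors used Trimmomatic 0.36 for trimming and STAR for mapping to GRCm38, counted reads by gene, filtered genes on a minimum cpm and deposited log2 cpm values as limma writes them. The deposited table gives log2 values in all 44 columns, also in those under a bare mouse number, which the record of units lists as other. No batch correction of the deposited log2 values is stated. Outlying samples had been left out by the authors.

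A whole number of reads, within 0.05, could be recovered from each of 360932 values (reads plus 0.5 over an effective library size). The lowest was 28 reads and the median 895. Groups, batch and sex were taken from the sample labels, and the sex labels were not checked against expression. P-values of the fits set a difference against the spread between mice that the other terms leave. With batch as a term, the spread between batches is not part of it. Groups were compared with limma 3.58.1 (lmFit, eBayes; R 4.3.3) on the log2 values, with Benjamini-Hochberg adjustment over 8203 genes and a two-sided FDR threshold of 0.05. The study names control for batch and sex but not the coding of batch, and batch was entered as categories. An interaction term tested the sexes. Values were also simulated from each gene's batch means with normal noise and 200 genes changed, and the fits returned the change put in. That checks the code and not whether the model suits these data. Correlations used centred log2 values and permutations within batch and group. Other tools were pandas 2.3.3, numpy 2.4.6 and scipy 1.17.1 under Python 3.11.15.

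The 10 genes and the gene lists were chosen with earlier results of these data known. The genes named are the 10, the 10 most like their mean, and of each list every gene called in a comparison and otherwise the 3 with the highest mean level, of which not all are printed. Iars, Fos, Crh, Gad2 and the microglial markers that were not measured fall outside this rule and were named after values were seen, as were the 8 astrocyte genes called with batch as a number. A gene that this rule names is not reported here. Alternatives were other codings of batch, fewer or more groups, a minimum mean log2 value of 5, other scalings, an offset of 5 reads, voom weights, and library size or marker scores as covariates. Leaving out mice 10, 16 or 23 was chosen after seeing the data.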

Additional observations from a re-analysis of the deposited data

How the results depend on the processing

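The 10 genes were higher in FC than in TA mice, and lower in EXT than in FC mice, under every alternative that kept batch as categories (8 of them were left with a minimum mean of 5), with medians from 0.42 to 0.64 and from -0.54 to -0.39. None of the 10 passed the FDR threshold in FC vs. TA or EXT vs. FC under any alternative, while an unadjusted p under 0.05 gave 6 and 4. In EXT vs. TA 1 of the 10, Slc1a2, was called with the batch number or without a batch term, and 0 under the others. Counts over all genes moved more. In EXT vs. TA, against 2 genes, 1755 were called with the batch number, 1614 without a batch term, 409 without batches 3 and 4, 472 without mouse 23, 11 with the choroid plexus score, 4 with the oligodendrocyte score, 1 with all groups fitted together, 1 with a minimum mean log2 value of 5, 0 with voom weights, 0 with log2 library size, 0 without mouse 10 and 1733 without adjustment (p under 0.05). In FC vs. TA, against 0, 3 were called with the minimum mean and 1379 at an unadjusted p, and in EXT vs. FC 344 at an unadjusted p. In female vs. male mice, against 0, 597 genes and 1 of the 10 (Fabp7) were called without a batch term, and 339 genes at an unadjusted p. The causes were not tested.

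Small sex differences, 6 in all, changed sign between codings of batch. Gja1 was -0.079 with the batch number and -0.076 without a batch term in female vs. male mice, Slc1a3 was -0.076 and -0.074, and the interaction of Gja1 in FC vs. TA was -0.017 and -0.019. Without mouse 10 the EXT vs. TA interaction was -0.082 for Fabp7 and -0.056 for Gfap. The median r of the 45 pairs ran from 0.64 to 0.75, with 41 to 45 pairs called, and 0 genes were called with library size or Crh under any alternative run. No paired analysis was possible because the labels number no replicates across groups and each mouse belongs to a single group.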
